A study of Homo sapiens with 6 samples.

Results

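The enzymes of serine synthesis and of folate one-carbon metabolism were examined in 6 total RNA sequencing libraries of a human neuroblastoma line, neuroblastoma being a childhood tumour of the sympathetic nervous system. The 10 genes were chosen by name for their place in the pathway, with earlier results of these data known, and the rule used no measured value. They are 10 of 60651 genes counted in each library. *PHGDH*, *PSAT1* and *PSPH* are the 3 genes of serine synthesis, *SHMT2*, *MTHFD2*, *MTHFD1L* and *ALDH1L2* are the 4 mitochondrial folate genes, and *SHMT1*, *MTHFD1* and *TYMS* are the 3 cytosolic ones.

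The libraries fell into 2 groups by their titles, 3 labelled EtOH (ethanol, the vehicle) and 3 labelled Tet (tetracycline, given for 5 days). All carried a tetracycline-inducible *MYCN* system per the protocol text, in which single clones were kept under G418 and blasticidin. The labels named more than 1 cell model: the titles read IMR575, a tag spoke of knockdown (with the values control and induction), and the protocol named SK-N-SH cells that express *MYCN* on induction. The study describes SK-N-AS cells with inducible *MYCN* and IMR-5/75 cells in which a *MYCN* shRNA can be induced, so libraries are called here by the group in their titles, and no direction of *MYCN* is assumed.

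Serine is made from the glycolytic intermediate 3-phosphoglycerate in the cytosol, and SHMT enzymes pass a carbon unit from serine to tetrahydrofolate, leaving glycine. The mitochondrial enzymes oxidise that unit and release it as formate, or burn it to CO2, and the cytosolic enzymes take up formate for purine and thymidylate synthesis. MYCN and MYC bind E-box sequences and are known activators of many of these genes in neuroblastoma and other tumours, and the stress factor ATF4 activates the serine synthesis and mitochondrial genes.

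Each library held between 27933378 and 40498065 counts, so that 3 counts corresponded to between 0.0741 and 0.107 CPM (counts scaled by TMM to a common library total, the level used below). The replicate 2 libraries of both groups stood apart from the others. They lay at one end of the first principal component, which held 44.7% of the variance, at 84.2 for EtOH replicate 2 and 47.3 for Tet replicate 2, with the other libraries at -1.81 or below. The second component, with 25.7%, separated Tet from EtOH. Fold changes of the 10 enzymes and ratios between enzymes are therefore also given without both of these libraries, a setting chosen after seeing the data. The study's methods give 3 independent biological replicates as the default for cell experiments, without naming these libraries. Nothing in the labels says that replicates came from separate cultures, and p-values then measure only the spread between these samples.

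RNA of *MYCN*, the gene named in the labels, did not separate the groups. The study followed MYCN protein by western blot in both of its cell models, and protein is not part of these data. The 3 EtOH libraries held 157.9, 256.3 and 155.9 CPM of *MYCN* RNA and the 3 Tet libraries 196.6, 200.1 and 145.4 CPM. The log2 fold change, Tet against EtOH, was -0.07 (SE 0.23; edgeR quasi-likelihood test, adjusted p = 0.956) with all libraries and 0.13 without both replicate 2 libraries. Of 12 noradrenergic markers of neuroblastoma, 10 could be tested, and the summed level was 575.4 to 705.3 CPM in EtOH and 735.5 to 887.1 CPM in Tet. The noradrenaline transporter *SLC6A2* rose, with a log2 fold change of 1.87 (SE 0.24, adjusted p = 0.0332), but it passed without EtOH replicate 2 only (adjusted p = 0.00922) when single libraries were left out. Without EtOH replicate 1 or 3 the adjusted p was 0.133 or 0.217, and without Tet replicate 1, 2 or 3 it was 0.208, 0.147 or 0.131. *GATA3*, the most abundant of them, held 228.6 to 262.6 CPM in EtOH and 299.4 to 334.1 CPM in Tet (log2 fold change 0.36, adjusted p = 0.401). The groups did not overlap, with Tet higher, in 8 of the 10, beside 9.2% of all genes. The part of this difference in the results below was not tested. The catecholamine enzymes *TH* and *DBH* lay at or below 0.0252 and 0.453 CPM in every library. Of 10 mesenchymal markers, 9 could be tested, and only *COL1A2* was at 0 in every library. *VIM* was present at 146.2 to 265.4 CPM and *PRRX1* at 33.6 to 136.5 CPM. The lowest value of the 9 was 0.826 CPM, for *SNAI2* in EtOH replicate 3. Markers of blood, endothelial, epithelial and liver cells summed to at most 3.47 CPM. In bulk samples such as these, fewer cells of a type and less RNA per cell cannot be told apart.

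Promoter sequences are shown for *MTHFD1*, *MTHFD2* and *MTHFD1L*, the cytosolic enzyme whose groups did not overlap and the mitochondrial enzymes of the same steps. They are the 250 bases before a RefSeq start site on GRCh38.p14, 5′ to 3′ along the plus strand, which is the strand of all 3 genes. Capitals mark the E-box CACGTG, the sequence that MYC family factors bind, and the ATF4 element TGATGNAA.
MTHFD1, chr14:64388103-64388352: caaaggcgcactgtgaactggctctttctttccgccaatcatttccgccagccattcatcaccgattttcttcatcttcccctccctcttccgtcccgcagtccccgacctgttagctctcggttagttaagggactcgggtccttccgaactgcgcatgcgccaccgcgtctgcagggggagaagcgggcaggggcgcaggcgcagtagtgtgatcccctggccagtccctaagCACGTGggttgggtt
MTHFD2, chr2:74198365-74198614: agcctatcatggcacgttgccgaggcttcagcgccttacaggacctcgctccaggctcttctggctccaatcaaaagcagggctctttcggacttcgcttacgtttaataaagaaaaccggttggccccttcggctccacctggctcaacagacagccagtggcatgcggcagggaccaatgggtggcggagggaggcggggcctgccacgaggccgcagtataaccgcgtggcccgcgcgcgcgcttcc
MTHFD1L, chr6:150866236-150866485: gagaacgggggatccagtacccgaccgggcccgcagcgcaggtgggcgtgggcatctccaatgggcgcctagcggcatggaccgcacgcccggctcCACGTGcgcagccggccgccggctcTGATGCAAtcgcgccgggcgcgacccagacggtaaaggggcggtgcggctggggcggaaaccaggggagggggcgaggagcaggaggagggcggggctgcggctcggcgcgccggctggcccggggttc

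The *MTHFD1* window held an E-box that began 15 bases before the start. The *MTHFD1L* window held an E-box 154 bases and an ATF4 element 129 bases before the start, and the motifs did not overlap. The same pair of motifs stood in 2 of the 4 *MTHFD1L* windows. The *MTHFD2* window held neither. Windows were found for 7 of the 10 genes, and those of *PHGDH*, *PSAT1* and *SHMT1* held neither motif. The *TYMS* window, chr18:657403-657652, held an E2F site (a reverse-strand match to TTTCCCGC, TTTCGCGC, TTTGCCGC or TTTGGCGC) that began 39 bases before the start. *PSPH*, *SHMT2* and *ALDH1L2* had no window in the table. Both strands of these windows were searched, and only in the bases before the start. Among 35116 such windows of all genes, 6.34% held the E-box, 3.14% the ATF4 element and 2.79% the E2F site. A match is a description of the letters only.

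The 10 genes covered a wide range of levels, which are compared here per length as TPM (counts divided by the length of all annotated exons, then brought to the same sum in every library). *PSAT1*, the aminotransferase that is the second enzyme of serine synthesis, was the most abundant in all 6 libraries, at 105.6 ± 39.5 TPM in EtOH and 135.1 ± 42.5 TPM in Tet (SD, n = 3 each). *SHMT1*, the cytosolic hydroxymethyltransferase, was the least abundant in all 6, at 0.144 ± 0.0178 and 0.188 ± 0.21 TPM. Between them stood *TYMS* at a mean of 57 TPM over the 6 libraries, *MTHFD2* at 39.1, *ALDH1L2* at 36.7, *MTHFD1L* at 17.8, *PSPH* at 15.6, *MTHFD1* at 14.1, *PHGDH* at 2.23 and *SHMT2* at 1.84 TPM. Several neighbours in this order did not separate beyond their spread: *MTHFD2* and *ALDH1L2* changed places between libraries, as did *MTHFD1L*, *PSPH* and *MTHFD1*, and *PHGDH* and *SHMT2*, and *ALDH1L2* passed *TYMS* in Tet replicate 3. The length used moved some genes. By the canonical transcript, which has 3154 bases for *MTHFD1* against 12208 bases of all exons, *MTHFD1* moved from rank 7 to rank 4 at 43 TPM and *MTHFD2* from rank 3 to rank 2 at 79.7 TPM, while *PSAT1* (94.4 TPM) stayed at rank 1 and *SHMT1* (0.379 TPM) at rank 10.

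**Figure D1:**
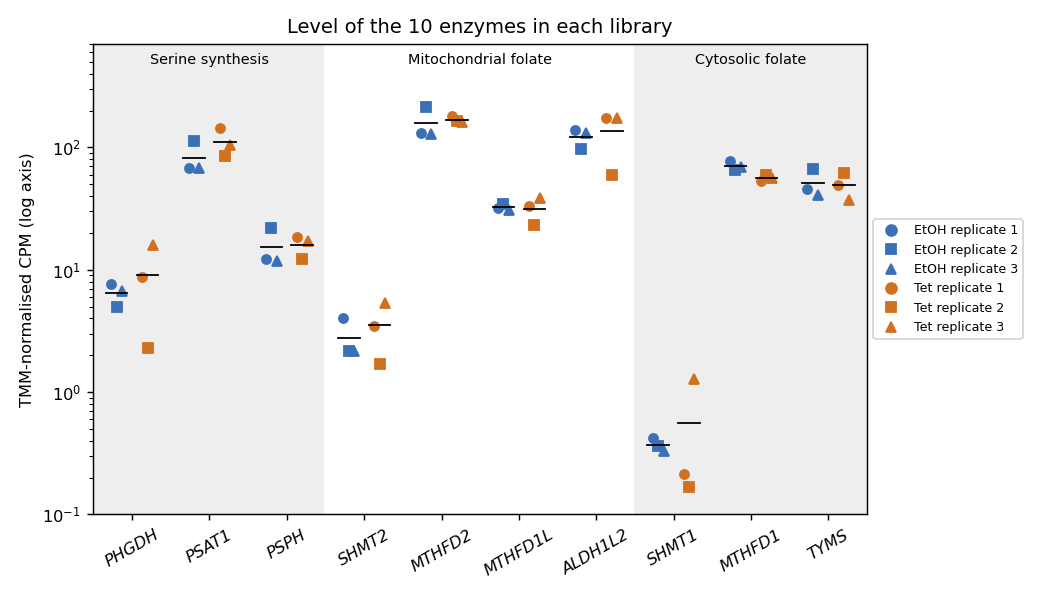
TMM-normalised CPM (log axis) of the 10 enzymes in each library. Points are libraries (circle, square and triangle for replicates 1, 2 and 3; blue EtOH, orange Tet) and short lines are group means (n = 3). *SHMT1* lies at or below 1.28 CPM in every library, and the EtOH and Tet points of *MTHFD1* alone do not overlap.

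None of the 10 genes passed the test between Tet and EtOH (edgeR quasi-likelihood test, adjusted p under 0.05 over all 22443 genes tested). Over all genes, 53 passed, which is 0.236%. At an unadjusted p under 0.05, 1 of the 10 genes passed, beside 10.8% of all genes. All 10 genes were tested. Their median log2 fold change was 0.12, with 7 above and 3 below 0, and the median over all genes was -0.01. DESeq2 also called 0 of the 10, and limma-voom 0.

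**Figure D2:**
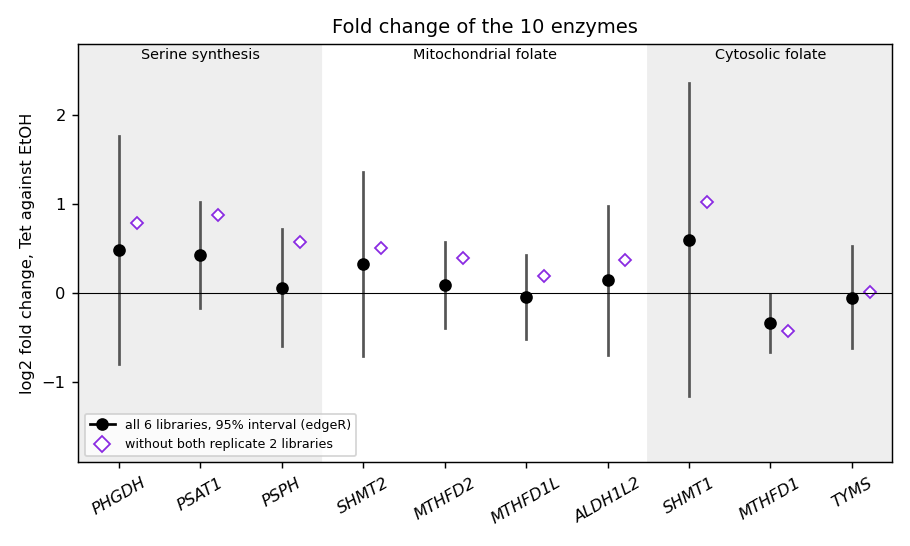
Log2 fold change of the 10 enzymes, Tet against EtOH. Black points with bars are the edgeR estimates and 95% intervals from all 6 libraries, and open diamonds are the estimates without both replicate 2 libraries. The interval of *MTHFD1* runs from -0.66 to -0.01, and the other 9 intervals include 0.

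Serine synthesis begins with *PHGDH* (chr1:119648411-119744218), the dehydrogenase that is its first enzyme. *PHGDH* stood at 7.62, 4.94 and 6.71 CPM in EtOH replicates 1 to 3 and at 8.76, 2.28 and 15.9 CPM in Tet replicates 1 to 3. The lowest and the highest library were both Tet, so that the EtOH values lay inside the range of Tet. Between the groups this gave a log2 fold change of 0.49 (SE 0.56, 95% interval -0.80 to 1.77, adjusted p = 0.837), and of 0.79 without both replicate 2 libraries (adjusted p = 0.166). The spread was wide: the within-group SD of log2 CPM was 0.947, more than in 98.8% of the 2244 genes of similar level.

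*PSAT1* (chr9:78297125-78330093) stood at 67.2, 112.9 and 67.7 CPM in EtOH and at 143.8, 85.7 and 104.6 CPM in Tet. EtOH replicate 2 lay above 2 of the 3 Tet libraries, whereas EtOH replicates 1 and 3 lay below all of them. The log2 fold change was 0.43 (SE 0.26, 95% interval -0.17 to 1.03, adjusted p = 0.627), which as a fold spans 0.89 to 2.04. *PSAT1* was the only one of the 10 genes that passed the test in any alternative: without both replicate 2 libraries its log2 fold change was 0.88 (SE 0.16, adjusted p = 0.0268, edgeR with 2 libraries a group), a setting chosen after seeing the data in which 3.77% of 23156 genes passed. Without EtOH replicate 2 alone it was 0.73 (adjusted p = 0.0915).

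*PSPH* (chr7:56011051-56051604), the phosphatase that releases serine, stood at 12.3, 22 and 11.8 CPM in EtOH and at 18.6, 12.3 and 17.3 CPM in Tet. As for *PSAT1*, replicate 2 was the highest library of EtOH and the lowest of Tet. Its log2 fold change was 0.06 (SE 0.29, 95% interval -0.59 to 0.72, adjusted p = 0.973) and 0.58 without both replicate 2 libraries (adjusted p = 0.0869). Per length, the serine synthesis genes were far from equal, since the *PSAT1* TPM exceeded that of *PHGDH* 27.3-fold in Tet replicate 3 and 156.2-fold in Tet replicate 2. By canonical transcript length those ratios were 5.55 and 31.7.

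*SHMT2* (chr12:57229573-57234935) is the mitochondrial serine hydroxymethyltransferase. It stood at 4.02, 2.16 and 2.18 CPM in EtOH and at 3.44, 1.69 and 5.39 CPM in Tet, and the groups overlapped. Tet against EtOH, the log2 fold change was 0.33 (SE 0.45, 95% interval -0.70 to 1.36, adjusted p = 0.871), and 0.51 without both replicate 2 libraries (adjusted p = 0.457). Other genes, among them *NDUFA4L2*, cover 8.38% of the exon sequence. The counting did not use strand and divided such reads between the genes, so that they cannot be told apart.

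*MTHFD2* (chr2:74186172-74217565), the mitochondrial methylenetetrahydrofolate dehydrogenase, stood at 131.2, 213.4 and 129.6 CPM in EtOH and at 179.9, 164.0 and 162.0 CPM in Tet. The Tet values lay close together, and the EtOH values lay on both sides of them. Its log2 fold change was 0.09 (SE 0.21, 95% interval -0.39 to 0.58, adjusted p = 0.934), so the fold lay between 0.764 and 1.49. Without both replicate 2 libraries it was 0.40 (adjusted p = 0.0913). *SLC4A5* and another gene cover 14.1% of its exon bases.

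*MTHFD1L* (chr6:150865679-151101887), the mitochondrial synthetase that releases formate, had levels of 32.2, 34.3 and 31 CPM in EtOH and of 33.4, 23.1 and 38.4 CPM in Tet, with the lowest and the highest value both in Tet. Tet against EtOH, the log2 fold change was -0.04 (SE 0.20, 95% interval -0.51 to 0.43, adjusted p = 0.977), and 0.19 without both replicate 2 libraries (adjusted p = 0.458).

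*ALDH1L2* (chr12:105019784-105107643), the mitochondrial dehydrogenase that oxidises formyl-tetrahydrofolate to CO2, stood at 138.3, 96.9 and 131.9 CPM in EtOH and at 174.2, 59.4 and 172.8 CPM in Tet. The replicate 2 library was the lowest of its group in both. A log2 fold change of 0.15 resulted (SE 0.37, 95% interval -0.69 to 0.98, adjusted p = 0.942), and 0.37 without both replicate 2 libraries (adjusted p = 0.096). Its within-group SD of 0.658 on the log2 scale exceeded that of 98.4% of genes of similar level. The cytosolic counterpart *ALDH1L1* was at 0 to 0.0331 CPM, under the level of 3 counts in every library.

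The cytosolic *SHMT1* (chr17:18327860-18363563) rested on few reads. It had 15, 10.5 and 10 counts in EtOH and 5.5, 5.5 and 51 in Tet, that is 0.418, 0.361 and 0.331 CPM against 0.213, 0.169 and 1.28 CPM. A single library, Tet replicate 3, was above all others, and the other Tet libraries were below every EtOH library. The log2 fold change of 0.60 (SE 0.77, 95% interval -1.15 to 2.36, adjusted p = 0.857) turned to -0.95 (adjusted p = 0.694) without Tet replicate 3 and was 1.03 (adjusted p = 0.491) without both replicate 2 libraries.

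*MTHFD1* (chr14:64388031-64463457), the cytosolic enzyme that carries the dehydrogenase, cyclohydrolase and synthetase activities, was the 1 gene of 10 whose groups did not overlap. It stood at 76.8, 65.4 and 69.5 CPM in EtOH and at 53, 59.5 and 55.7 CPM in Tet. Group means were 70.5 ± 5.77 and 56.1 ± 3.28 CPM (SD, n = 3 each). By the edgeR test, Tet differed by a log2 fold change of -0.33 (SE 0.14, 95% interval -0.66 to -0.01, adjusted p = 0.456), which did not pass, although the unadjusted p from the same edgeR model was 0.047. Over all genes, 8.28% had groups that did not overlap with Tet lower, and 1 of 10 is near that share. The value was negative under all 16 alternatives, between -0.42 without both replicate 2 libraries (adjusted p = 0.0857) and -0.28 after a GC correction. Its within-group SD of 0.101 was larger than that of 11.5% of genes of similar level, the smallest such share of the 10. *ZBTB25* and 2 other genes cover 15.7% of its exon bases.

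*TYMS* (chr18:657653-673578), thymidylate synthase, stood at 45.3, 67.1 and 40.6 CPM in EtOH and at 49.1, 62.1 and 36.9 CPM in Tet. Replicate 2 was the highest library in both groups. The log2 fold change was -0.05 (SE 0.25, 95% interval -0.62 to 0.53, adjusted p = 0.979), and 0.01 without both replicate 2 libraries (adjusted p = 0.989). As much as 47.5% of its exon bases lie inside *ENOSF1*, which runs antisense to it, or *TYMSOS*, and without strand their reads cannot be told apart. *ENOSF1* had 98.7, 131.2 and 98 CPM in EtOH and 99.3, 106.7 and 89.6 CPM in Tet.

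The mitochondrial and the cytosolic enzyme of a step were then compared as a log2 ratio of CPM within each library (prior 0.5 CPM), and 4 pairs were tested by permuting the group labels (exact permutation test, two-sided). The smallest p it can give at this sample size is 0.1. The *MTHFD2*/*MTHFD1* log2 ratio was 0.77, 1.70 and 0.89 in EtOH and 1.75, 1.45 and 1.53 in Tet. The Tet libraries lay close together and 1 EtOH library, replicate 2, lay among them. The means were 1.12 ± 0.50 and 1.58 ± 0.16 (SD, n = 3 each), a difference of 0.46 (exact permutation p = 0.3, adjusted p = 0.667 over the 4 pairs). Without both replicate 2 libraries the means were 0.83 and 1.64 and the groups did not overlap, a difference of 0.81 (exact permutation p = 0.333, the smallest that 2 libraries against 2 can give).

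The *MTHFD1L*/*MTHFD1* log2 ratio was -1.24, -0.92 and -1.15 in EtOH and -0.66, -1.35 and -0.53 in Tet, a difference of 0.26 (exact permutation p = 0.4, adjusted p = 0.667). Without both replicate 2 libraries these groups did not overlap either, with a difference of 0.60 (exact permutation p = 0.333, again the smallest possible). The *SHMT2*/*SHMT1* log2 ratio was 1.87 ± 0.37 in EtOH and 1.97 ± 0.43 in Tet (SD, n = 3 each), a difference of 0.09 (exact permutation p = 0.5, adjusted p = 0.667). It was 0.10 without both replicate 2 libraries and 0.18 with a prior of 0.1 CPM, since *SHMT1* lay under the prior of 0.5 CPM in all libraries but Tet replicate 3. The *ALDH1L2*/*ALDH1L1* ratio differed by -0.01 (exact permutation p = 1) and rests on the prior, because *ALDH1L1* had at most 1 count a library. Without both replicate 2 libraries the *ALDH1L2*/*ALDH1L1* groups did not overlap either (difference 0.37, exact permutation p = 0.333). With all 6 libraries the groups overlapped in all 4 pairs.

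**Figure D3:**
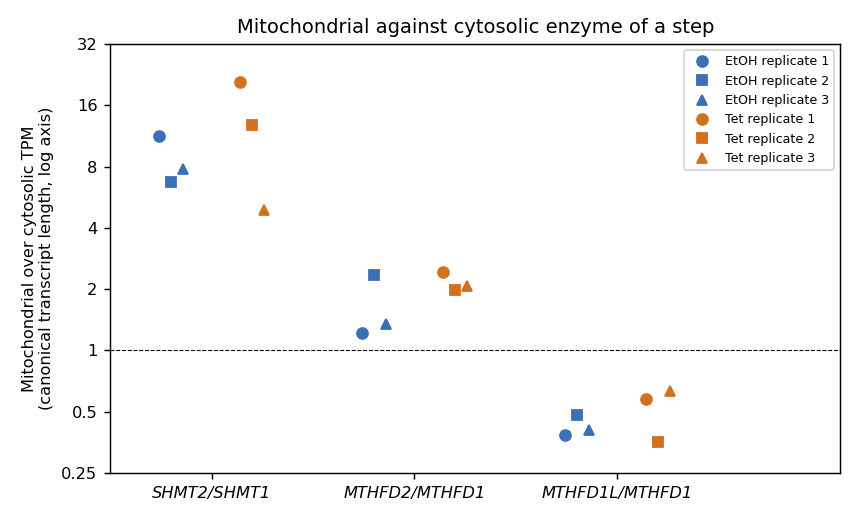
Ratio of the TPM of the mitochondrial to the cytosolic enzyme of a step (canonical transcript length, log axis), 1 point a library (blue EtOH, orange Tet; circle, square and triangle for replicates 1, 2 and 3). *SHMT2* exceeds *SHMT1* between 4.9-fold and 20.7-fold and *MTHFD2* exceeds *MTHFD1* between 1.22-fold and 2.43-fold, whereas *MTHFD1L* lies between 0.354 and 0.629 of *MTHFD1*.

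Per length, *SHMT2* and *MTHFD2* exceeded their cytosolic counterparts in all 6 libraries by either length. The order of *MTHFD1L* and *MTHFD1* depended on the length: the TPM ratio was 0.354 to 0.629 by canonical transcript and 0.967 to 1.72 by all exons. The summed TPM of the 4 mitochondrial genes over that of *SHMT1* and *MTHFD1* was 5.86 ± 0.761 in EtOH and 7.84 ± 2.28 in Tet by all exons (SD, n = 3 each), and 2.83 ± 0.562 and 3.77 ± 0.881 by canonical transcript. By all exons the ratio was 5.28, 6.72 and 5.59 in EtOH and 9.54, 5.24 and 8.73 in Tet, and by canonical transcript 2.43, 3.47 and 2.58 against 4.48, 2.78 and 4.05. The groups overlapped by either length through Tet replicate 2. By all exons it lay below every EtOH library, and by canonical transcript below EtOH replicate 2 only. The other Tet libraries lay above every EtOH library. These sums leave out *TYMS*, which has no mitochondrial counterpart among the 10 genes. With *TYMS* among the cytosolic genes the ratio was above 1 in all libraries but Tet replicate 2, where it was 0.84 by all exons and 0.918 by canonical transcript.

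The 10 genes moved between libraries of a group in more than 1 pattern. *PHGDH*, *SHMT2* and *ALDH1L2* were low in both replicate 2 libraries, at -0.40, -0.37 and -0.32 from their mean over the 6 libraries in EtOH replicate 2 and at -1.36, -0.65 and -1.02 in Tet replicate 2 (log2 of CPM + 0.5). *TYMS* was high in both, at 0.45 and 0.34. *PSAT1*, *PSPH* and *MTHFD2* were high in EtOH replicate 2, at 0.27, 0.51 and 0.41, and stood at -0.12, -0.30 and 0.03 in Tet replicate 2. In Tet replicate 3, *PHGDH* (1.20), *SHMT1* (0.97) and *SHMT2* (0.78) had the highest deviations of the 10.

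The libraries also differed by the GC content of genes. All genes tested were cut into 10 equal bins by exon GC. From the lowest to the highest bin, the median deviation went from 0.25 to -0.27 in EtOH replicate 2, from 0.15 to -0.16 in Tet replicate 2 and from -0.13 to 0.58 in Tet replicate 3. *PHGDH*, *SHMT1* and *SHMT2* have exons of 51.8%, 52.2% and 56.8% GC, and the medians of their bins in Tet replicate 3 were 0.08, 0.08 and 0.22, below the deviations of these genes. *ALDH1L2*, with 41.4% GC, lay in a bin whose median in Tet replicate 2 was -0.00. *TYMS*, with 51.1% GC, was high in EtOH replicate 2, where its bin had a median of -0.23. After a GC correction, chosen after seeing the data, 0 of the 10 genes passed, and the log2 fold changes moved most for *SHMT2*, from 0.33 to 0.19. The part of GC content in the levels of single genes was not tested further.

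**Figure D4:**
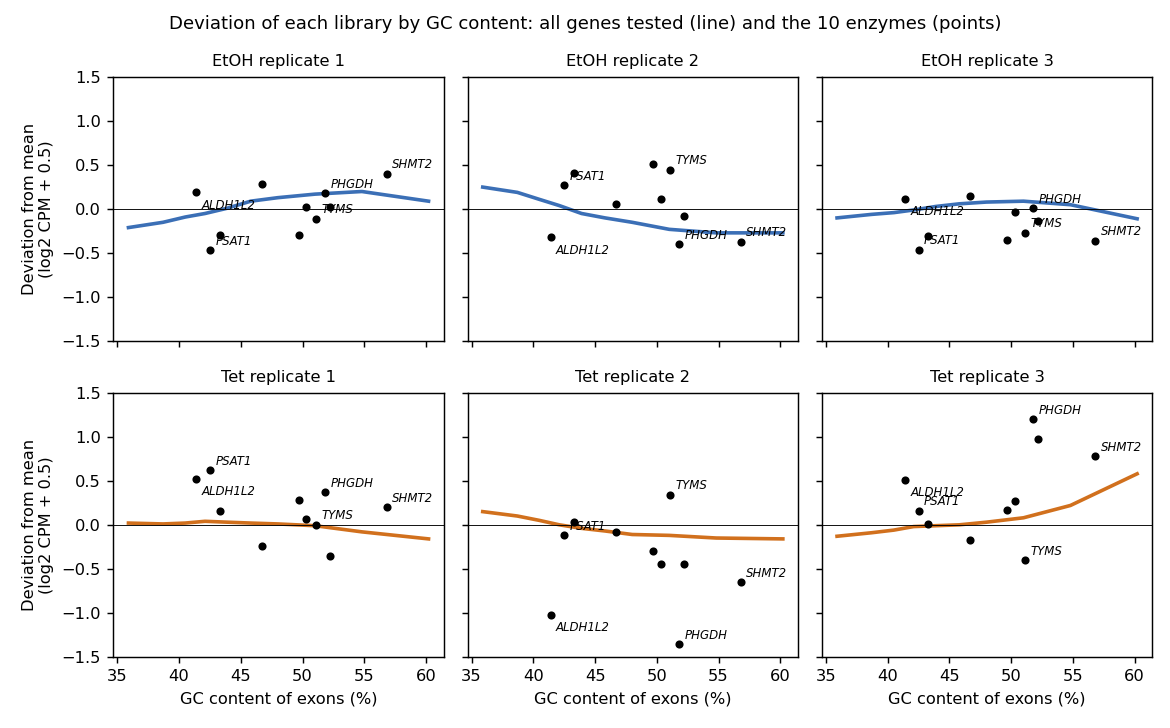
Deviation of each library from the mean of the 6 (log2 of CPM + 0.5) against the GC content of exons in percent. Lines join the medians of 10 equal bins of all genes tested and black points are the 10 enzymes, 5 of them named. The line rises to 0.58 at high GC in Tet replicate 3 and falls to -0.27 in EtOH replicate 2, and *PHGDH* and *ALDH1L2* lie far below the line in Tet replicate 2.

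The other genes of the pathway were taken from 4 lists of 49 genes, of which 38 were tested and 0 passed. At an unadjusted p under 0.05, 3 were higher and 1 lower in Tet, a share near the 10.8% of all genes. The median log2 fold change of the 38 was -0.16, with 14 above and 24 below 0. The 3 higher genes, named here after their values were seen, were the betaine-homocysteine methyltransferase genes *BHMT* and *BHMT2* and the folate enzyme gene *MTHFS*, and the lower one was *SRR*. All 3 were at low levels: *BHMT* at 0.391, 0.469 and 0.529 CPM in EtOH and at 1.35, 1.24 and 1.16 CPM in Tet (log2 fold change 1.43, SE 0.37, adjusted p = 0.194), *BHMT2* at no more than 2.06 CPM and *MTHFS* at no more than 2.57 CPM in any library. Other genes cover 43.4% of the exon sequence of *MTHFS* and 6.85% of that of *BHMT*, but none of that of *BHMT2*. Of the 38 genes, 3 had groups that did not overlap with Tet higher (9.2% of all genes), namely *BHMT*, *BHMT2* and *MTHFS*. A further 5 did not overlap with Tet lower (8.28% of all genes), namely *GART* and *SRR* and, also named after their values were seen, *MTRR*, *AHCYL1* and *CTH*. DESeq2 and limma-voom also called 0 in each list.

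Among 9 genes of folate uptake and reduction, 7 were tested. *SLC25A32*, the mitochondrial folate carrier, had the lowest log2 fold change of the list at -0.37 (adjusted p = 0.614), with 80.8% of its exon sequence shared with other genes.

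Among 9 other folate enzymes, 7 were tested, with a median log2 fold change of -0.18. The purine synthesis enzymes that use formyl-tetrahydrofolate were the lowest and, among those of at least 5 CPM, the highest of the list. *GART* was at 86.9, 75.8 and 70.6 CPM in EtOH and at 67.5, 62.7 and 45.8 CPM in Tet (log2 fold change -0.41, SE 0.18, adjusted p = 0.482). *ATIC* was at 55.7 to 72.4 CPM (log2 fold change -0.18, adjusted p = 0.74). The *GART* groups did not overlap.

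Of 17 genes that use or carry serine and glycine, 12 were tested. *SRR*, serine racemase, had 34.8, 30.9 and 32.4 CPM in EtOH and 24.6, 23.8 and 22.2 CPM in Tet, with no overlap (log2 fold change -0.47, SE 0.15, adjusted p = 0.287), and other genes cover 43.9% of its exon sequence. The serine transporter *SLC1A4* was at 8.69 to 16.8 CPM (log2 fold change 0.28, adjusted p = 0.784). *DLD*, a subunit of the glycine cleavage system, was at 192.9 to 257.9 CPM (log2 fold change 0.01, adjusted p = 0.993).

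Of 14 genes of the methionine cycle and transsulfuration, 12 were tested and 9 had a log2 fold change below 0. *MAT2A*, which makes S-adenosylmethionine, was the most abundant at 264.8 to 503.3 CPM (log2 fold change -0.13, adjusted p = 0.91). *AHCY*, which clears S-adenosylhomocysteine, stood at 97, 44.5 and 93.1 CPM in EtOH and at 39.7, 37.3 and 75.4 CPM in Tet (log2 fold change -0.62, SE 0.36, adjusted p = 0.592). *AHCYL2* was at -0.06 (adjusted p = 0.971).

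Known regulators and companions of the pathway were described by list. The list of 22 ATF4 targets, which includes *ATF4* itself, holds none of the 10 enzymes. Of the 22, 17 were tested, *ATF4* among them, and 0 passed (edgeR, and DESeq2 also 0). At an unadjusted p under 0.05 there were 2, near the 10.8% of all genes. The median log2 fold change was 0.40, with 14 of 17 above 0. Their median deviation was -0.41 in EtOH replicate 2 and -0.66 in Tet replicate 2, and it was 0.44 and 0.65 in the other Tet libraries. *PHGDH*, *SHMT2* and *ALDH1L2* were low in the same libraries, while *MTHFD2*, *PSAT1* and *PSPH* were not low in EtOH replicate 2. Nor was *MTHFD1L*, which stood at 0.11 there and at -0.45 in Tet replicate 2. Without both replicate 2 libraries, 5 of 17 passed, all higher in Tet, beside 2.1% of all genes that passed and were higher in that setting. *GARS1*, a glycyl-tRNA synthetase, was at 284.7, 318.4 and 305.1 CPM in EtOH and at 441.9, 295.7 and 457.5 CPM in Tet, and *ATF5* was at 8.87, 1.98 and 8.76 CPM in EtOH and at 20, 2.2 and 38.1 CPM in Tet. In that setting their log2 fold changes were 0.61 and 1.73. The cystine transporter gene *SLC7A11* had the largest value there, 2.03 (adjusted p = 0.000884), and was named after its values were seen, as were *CEBPG* and *WARS1*, which also passed. *ATF4* itself was at 41.6, 9.49 and 24.7 CPM in EtOH and at 23.7, 11.2 and 27.2 CPM in Tet (log2 fold change -0.29, adjusted p = 0.903).

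Of 26 S phase genes, all were tested and 0 passed (edgeR; DESeq2 called 1, *MCM3*), with 2 at an unadjusted p under 0.05 (10.8% of all genes) and a median log2 fold change of -0.12. In EtOH replicate 2, 17 of the 26 were at their highest, and the median deviation there was 0.39, against 0.11 in Tet replicate 2 and -0.09 or below in the other 4 libraries. *TYMS* was high in the same 2 libraries. *PCNA* was the most abundant S phase gene, at 126.0 to 223.1 CPM. *MCM3*, a subunit of the replicative helicase, stood at 46.4, 36.2 and 36.4 CPM in EtOH and at 21.4, 24.3 and 26.6 CPM in Tet (log2 fold change -0.72, SE 0.17, adjusted p = 0.17). The part of the ATF4 targets, the S phase genes and the replicate 2 libraries in the levels of the 10 enzymes was not tested.

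**Figure D5:**
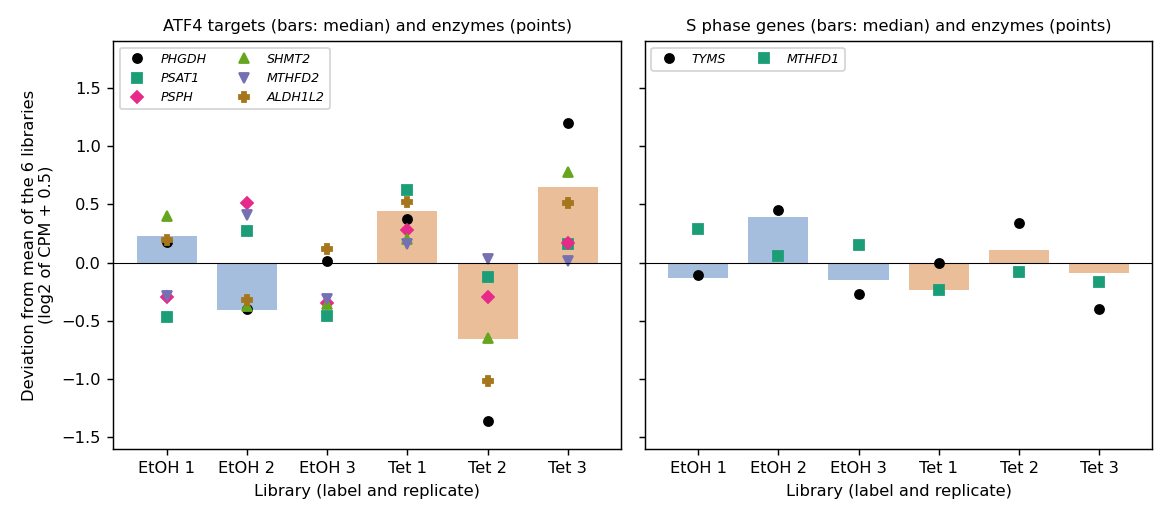
Deviation from the mean of the 6 libraries (log2 of CPM + 0.5) in each library. Bars are the median over ATF4 targets with *ATF4* itself (left) or S phase genes (right), in blue for EtOH and orange for Tet. Points are enzymes, and *MTHFD1L* is not drawn. *PHGDH*, *SHMT2* and *ALDH1L2* lie below 0 with the ATF4 targets in both replicate 2 libraries, whereas *TYMS* lies above 0 with the S phase genes there.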

How the data were processed

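Total RNA, freed of ribosomal RNA by enzymes, was sequenced as stranded, paired reads. The deposited values are estimated counts per gene. According to their headers, trimmed reads were aligned with STAR, and unique alignments to exons were counted by featureCounts 1.6.4, which divided a pair evenly among overlapping genes and ignored strand. The submitters' processing notes list STAR 2.7.1a, featureCounts 1.5.1 and GRCh38, and the study's methods describe strand-aware options, so the headers were followed. Fractions occurred in 12.3% to 14.7% of the genes of a library. All 92 spike-in sequences were at 0 and were left out.

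The planned test had assumed whole counts, so values were rounded. Genes were kept with filterByExpr, scaled by TMM and tested with edgeR 4.0.16 (quasi-likelihood, R 4.3.3), with Benjamini-Hochberg adjustment over all genes and a threshold of 0.05. The test was also run on simulated counts, drawn independently for each library, which held neither the replicate 2 pattern nor the GC pattern. Alternatives used DESeq2 1.42.0, limma 3.58.1 (voom), other size factors and filters, a replicate block and fits without single libraries. The GC correction, the fits without both replicate 2 libraries and the canonical transcript lengths were chosen after seeing the data. SE is the size of a log2 fold change divided by the square root of F. The level of 3 counts, against which low levels were set, was a chosen value.

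The 10 enzymes and all lists were chosen with earlier results of these data known. Named genes were the 10 enzymes, *MYCN*, the overlapping *ENOSF1* and *TYMSOS*, and in each list those past the threshold, the highest and lowest log2 fold change (mean of 5 CPM or more), and the most abundant by TPM. Some genes that this rule names are not reported here. *ALDH1L1* served as the counterpart of *ALDH1L2*. Of the marker lists, the mesenchymal list had 9 of 10 genes tested and 0 past the threshold, with *SNAI2* highest (log2 fold change 1.84) and *PRRX1* lowest (-1.02), *HAND2* was lowest of the noradrenergic list (-0.14), *MCM7* highest of the S phase list (0.08), and *EPCAM* was the most abundant of the other cell types, at 0.496 to 1.77 CPM. Promoter sequences came from RefSeq (GRCh38.p14).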

Additional observations from a re-analysis of the deposited data

How the results depend on the processing

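Over all genes, 53 passed the threshold. The count was 485 with DESeq2, 302 with no filter, 675 with a replicate block, 137 after the GC correction and 874 without both replicate 2 libraries, and 0 to 692 when single libraries were left out (692 without EtOH replicate 2, at most 2 without any other). Size factors by RLE or upper quartile, a minimum of 10 counts, limma-voom and leaving out mitochondrial genes kept it within 1.5 times. Same-numbered libraries had correlations of deviations of 0.0603, 0.51 and 0.219 for replicates 1, 2 and 3. Whether they share more than a number was not tested, and the replicate block called 0 of the 10 enzymes.

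The 10 enzymes stayed at 0 calls in every alternative but that without both replicate 2 libraries, where 1 (*PSAT1*, 0.88) passed; leaving out single libraries gave 0 to 0. In that setting 5 ATF4 targets passed and 1 S phase gene (*MCM3*) did. The S phase count was also 1 with DESeq2 and with the replicate block, and 0 to 1 when single libraries were left out. Of 159 refits of the 10 enzymes, 141 kept direction and side of the threshold, 17 changed sign and 1 passed. Of the 17, 14 left out 1 library. The cause was not tested. The others were *MTHFD1L* (0.19) and *TYMS* (0.01) without both replicate 2 libraries, where *MYCN* was 0.13, and *ALDH1L2* (-0.001) with limma-voom. *SHMT1* could not be tested with a minimum of 10 counts.

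Without single libraries the log2 fold changes ran from -0.22 to 0.94 for *PHGDH*, 0.19 to 0.73 for *PSAT1*, -0.13 to 0.42 for *PSPH*, -0.95 to 1.03 for *SHMT1*, -0.13 to 0.66 for *SHMT2*, -0.38 to -0.29 for *MTHFD1*, -0.06 to 0.38 for *MTHFD2*, -0.20 to 0.14 for *MTHFD1L*, -0.09 to 0.51 for *ALDH1L2*, -0.24 to 0.21 for *TYMS* and -0.22 to 0.21 for *MYCN*. The differences of log2 ratios ran from -0.16 to 0.31 for *SHMT2*/*SHMT1*, 0.28 to 0.75 for *MTHFD2*/*MTHFD1*, 0.10 to 0.51 for *MTHFD1L*/*MTHFD1* and -0.30 to 0.51 for *ALDH1L2*/*ALDH1L1*, which was 0.004 at a prior of 2 CPM and 0.37 without both replicate 2 libraries. The other 3 differences kept their sign there. Depth limits *SHMT1*, which had 5.5 to 15 counts in all libraries but Tet replicate 3.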
